A study of Homo sapiens with 24 samples.

Results

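The protein 4.1 family was followed through 7 eCLIP peak lists from 293T cells, a human embryonic kidney line. Peaks were assigned to EPB41, EPB41L1, EPB41L2 or EPB41L3 when they shared at least 1 nt with the gene's window on the same strand. By this rule 153 of the 269336 peaks in the 7 lists belonged to the family: 40 to EPB41, 24 to EPB41L1, 70 to EPB41L2 and 19 to EPB41L3. The hg19 windows were chromosome 1 from 29213500 to 29446600 on the plus strand for EPB41, chromosome 20 from 34679400 to 34820800 on the plus strand for EPB41L1, chromosome 6 from 131160400 to 131384500 on the minus strand for EPB41L2, and chromosome 18 from 5392300 to 5629000 on the minus strand for EPB41L3. The windows measured 233.1, 141.4, 224.1 and 236.7 kb.

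Proteins of this family tie membrane proteins to the spectrin-actin skeleton beneath the plasma membrane. Their FERM domain binds the membrane side, and in EPB41 (4.1R) a separate spectrin-actin binding domain strengthens the skeleton of the red cell. EPB41L1 (4.1N), EPB41L2 (4.1G) and EPB41L3 (4.1B) are paralogs found in neurons and many other tissues. Their pre-mRNAs are known for extensive alternative splicing, and RBFOX proteins, which recognise GCAUG elements in RNA, regulate exons of this family. In general, RBFOX binding downstream of an alternative exon favours its inclusion and binding upstream favours its skipping.

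eCLIP crosslinks protein to RNA in living cells with ultraviolet light, precipitates the protein and sequences the RNA bound to it beside an input sample of the same lysate. The cells were irradiated at 254 nm and 400 mJ/cm2, and lysates were digested with RNase I. The RBFOX2 antibody gave 2 libraries and the isotype control IgG gave 1, all at 40 U of RNase I. SLBP, the histone mRNA stem-loop binding protein, was precipitated in 4 libraries, with replicates 1 and 2 at 40 U and replicates 3 and 4 at 5 U. The labels do not say whether replicates came from separate cultures, so their spread may be technical. The lists held 10122 to 97594 peaks and give no read counts, so the depth behind a fold is unknown. Each peak carries the authors' log2 fold over its paired input and their −log10 p. A peak is called enriched here when the log2 fold was at least 3, which is 8-fold, and the −log10 p at least 5. Exons, introns and the sequence under the peaks were not analysed here, so places are given as hg19 positions and as the distance from the 5′ edge of the window. How abundant each transcript was cannot be read from the lists, and its part in the number of peaks was not tested.

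RBFOX2 peaks were found in all 4 genes, all of them above input, and EPB41L2 held the most enriched ones. RBFOX2 replicate 1 had 55 peaks in the family, of which 36 (65.5%, exact 95% binomial interval 51.4 to 77.8) were enriched. Replicate 2 had 49, of which 21 (42.9%, interval 28.8 to 57.8) were enriched. Over their whole lists, 7.95% of the peaks of replicate 1 and 7.66% of those of replicate 2 were enriched. None of the 55 or 49 family peaks lay below input, while 32.6% and 31.0% of the 2 whole lists did. The median log2 fold of the family peaks was 5.12 and 3.67, against 0.73 and 0.86 over the lists. These intervals cover counting error only, and touching pieces of 1 binding site count separately in them. With touching peaks merged, 11 of 30 stretches (36.7%) in replicate 1 and 10 of 33 (30.3%) in replicate 2 were enriched, against 5.76% and 5.36% of all merged stretches.

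**Figure D1:**
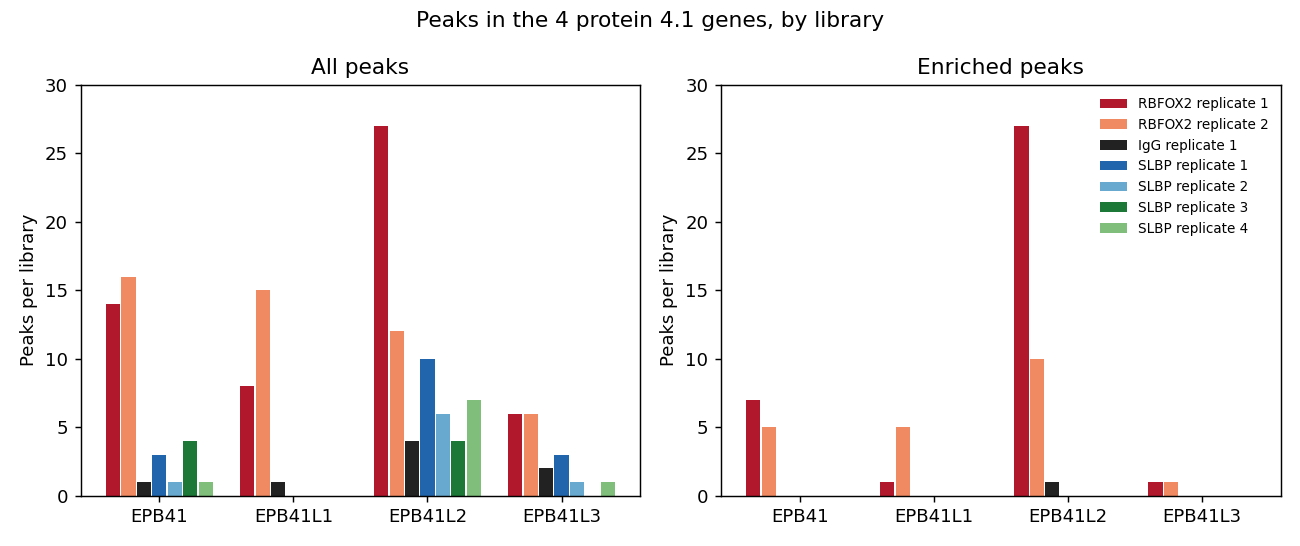
Number of peaks (left) and of enriched peaks (right) in each gene; each bar is 1 library and the vertical axis starts at 0. RBFOX2 bars are the tallest in every gene, EPB41L2 reaches 27 in replicate 1 and 12 in replicate 2, and the only enriched bar outside RBFOX2 is the IgG bar of height 1 in EPB41L2.

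The control antibodies gave fewer peaks in these genes, from shorter lists. IgG had 8, of which 1 was enriched, at EPB41L2 (0.180% of the IgG list was enriched). The SLBP libraries had 16, 8, 8 and 9 family peaks in replicates 1 to 4, and 0 of them were enriched, while 1.23%, 1.27%, 1.70% and 2.33% of their lists were. With touching peaks merged, 1 of 7 IgG stretches and 0 of 16, 8, 8 and 9 SLBP stretches were enriched, against 0.144% of merged IgG stretches and 0.714%, 0.629%, 0.713% and 1.21% of merged SLBP stretches in replicates 1 to 4. A count of 0 among so few peaks allows an enriched share of up to 18.8%, 37.5%, 37.5% and 33.3%. By the fold alone, 1, 1, 0 and 3 SLBP peaks passed a log2 fold of 3, against 7.21%, 7.44%, 2.06% and 15.3% of the lists, and 1 IgG peak did, against 4.12%. The RBFOX2 counts by fold alone were 42 and 34, against 12.0% and 11.6%. EPB41L1 had 0 peaks in all 4 SLBP lists. Below input lay 0 of the 8 IgG family peaks, and 0, 0, 1 and 0 of the SLBP ones in replicates 1 to 4. Over the lists it was 10.7% in IgG and 7.02%, 9.45%, 23.4% and 17.0% in SLBP. With so few IgG and SLBP family peaks, these counts cannot be told apart from the list shares.

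RBFOX2 and SLBP were compared by library, with 2 against 4 values. The RBFOX2 libraries had 52.0 ± 4.2 family peaks (SD, n = 2) and the SLBP libraries 10.25 ± 3.86 (SD, n = 4). Enriched peaks averaged 28.5 ± 10.6 (SD, n = 2) against 0 in every SLBP library. The median log2 fold averaged 4.40 ± 1.03 (SD, n = 2) against 1.52 ± 0.16 (SD, n = 4). The groups did not overlap in any of the 8 comparisons made, 4 over the family and 1 for each gene's number of enriched peaks. Each gave a two-sided exact permutation p = 0.133 (Benjamini-Hochberg adjusted 0.133), the smallest that 2 against 4 libraries allow, so none could pass 0.05. Without EPB41L2 the difference in enriched peaks was 10.0 and the difference in median log2 fold 1.27, in place of 28.5 and 2.87. Each RBFOX2 list was also longer than any SLBP list. The whole RBFOX2 lists held more enriched peaks too, 5954 and 7480, and a higher enriched share, 7.95% and 7.66% against at most 2.33% in SLBP. In these measures the groups were thus apart over the lists as well. The median log2 fold over the lists was 0.73 and 0.86 in RBFOX2 and 1.57, 1.46, 0.66 and 1.17 in SLBP replicates 1 to 4. As a share of its list, the family took 0.0734% and 0.0502% of the RBFOX2 peaks in replicates 1 and 2 and 0.0695%, 0.0436%, 0.0471% and 0.0889% of the SLBP peaks in replicates 1 to 4. By this share the groups overlapped and SLBP replicate 4 was the highest, so the difference in the number of peaks did not hold relative to list length. Of the enriched peaks of each list, the family held 0.605% and 0.281% in RBFOX2 and 0 in each SLBP library. In IgG it was 1.96%, which was 1 peak of 51. RBFOX2 and SLBP did not overlap by this measure. However, the SLBP lists held only 284, 233, 289 and 236 enriched peaks in replicates 1 to 4. At shares as small as those of RBFOX2, a count of 0 in such lists cannot tell the groups apart.

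EPB41L2, whose product 4.1G is the most widely expressed member of the family, carried its RBFOX2 peaks at a short stretch of the gene. All 27 peaks of replicate 1 lay within 1.09 kb, at 131200441 to 131201534, and 10 of the 12 peaks of replicate 2 lay at 131200076 to 131201257. This is 183.0 to 184.4 kb from the 5′ edge, or 81.9% of the way through the window. All 27 and those 10 were enriched. The other 2 peaks of replicate 2, at 131322708 to 131322733, touched each other and had log2 folds of 3.79 and 3.84 with −log10 p of 3.999 and 4.19, below the p limit.

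Nucleotides enriched in both replicates formed 3 sites in EPB41L2, of 89, 30 and 184 nt, which join into 1 locus at 131200532 to 131201257. The widest site, at 131201074 to 131201257, was also the strongest. There replicate 1 had 18 touching pieces, whose log2 fold climbed from 7.73 at 131201071 to 9.55 at 131201157 to 131201162 and fell to 5.92 at 131201241 to 131201258. Replicate 2 had 6 pieces in the same stretch with log2 folds of 6.64 to 7.61, highest at 131201195 to 131201240. The midpoints of the highest pieces were 58 nt apart. The site of 89 nt, at 131200532 to 131200620, reached 6.73 in replicate 1 and 6.24 in replicate 2, and the site of 30 nt, at 131200999 to 131201028, reached 4.32 and 4.26. The highest piece was the third highest of 74902 peaks in replicate 1 by fold and number 88 of 97594 in replicate 2. Replicate 1 also had enriched stretches at 131200441, 131200805 and 131201498 where replicate 2 had no peak, and replicate 2 had one at 131200076, log2 fold 3.86, where replicate 1 had none.

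**Figure D2:**
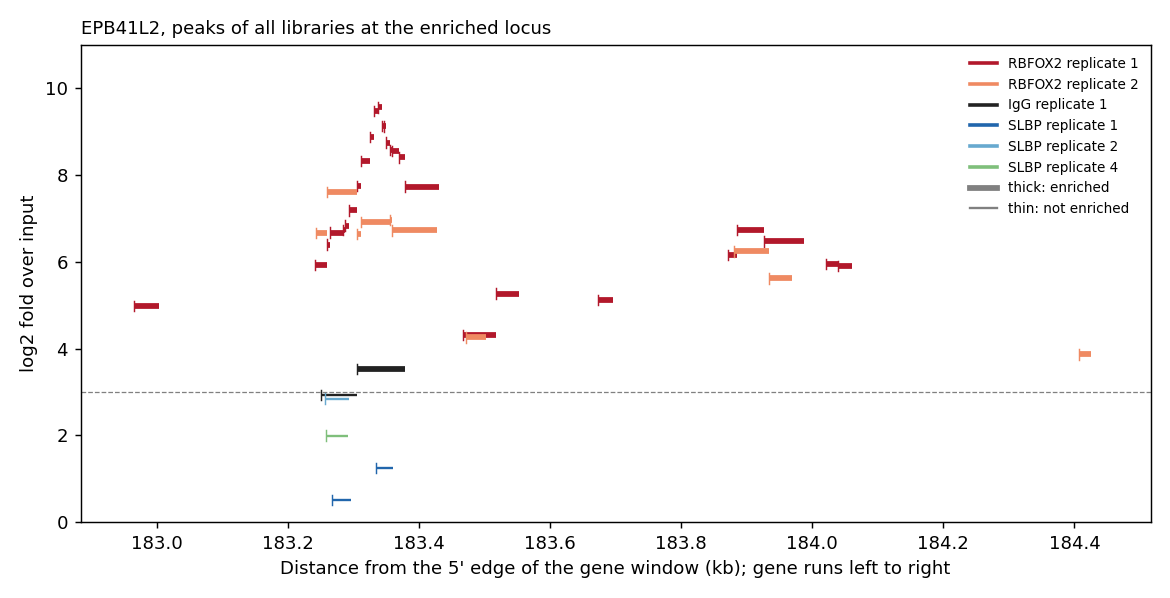
Each bar is 1 peak at the EPB41L2 locus, drawn from its start to its end as distance from the 5′ edge of the window (kb, horizontal) at its log2 fold over input (vertical); thick bars are enriched and the dashed line marks a log2 fold of 3. Replicate 1 of RBFOX2 forms a summit of short pieces that reaches 9.55, replicate 2 stays at or below 7.61 there, and the IgG and SLBP peaks under the summit lie at 3.53 or lower.

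The strongest EPB41L2 site was the only enriched RBFOX2 site of the family on which other antibodies had peaks. IgG had 2 touching peaks there, at 131201122 to 131201195 with a log2 fold of 3.53 and a −log10 p of 24.6, which was enriched, and at 131201196 to 131201250 with 2.93. SLBP replicate 1 had peaks of 1.24 and 0.51, replicate 2 one of 2.85 and replicate 4 one of 2.00, none of them enriched, and replicate 3 had no peak. Because of the many short pieces at this site, 17 of the 55 family peaks of RBFOX2 replicate 1 touched an IgG peak (30.9%, against 15.6% of its list). In replicate 2 it was 6 of 49 (12.2%, against 11.2% of its list). SLBP replicates 1 to 4 touched 11, 7, 0 and 5 family peaks of RBFOX2 replicate 1, while 10.9%, 10.1%, 8.48% and 6.98% of its list was touched. They touched 4, 2, 0 and 2 family peaks of replicate 2, while 8.65%, 7.60%, 6.23% and 4.73% of its list was touched. The RBFOX2 folds at the site were higher than the IgG fold in both replicates, but each fold rests on its own input and IgG had no second library to check it. At the other loci enriched in both RBFOX2 replicates, in EPB41, EPB41L1 and EPB41L3, neither IgG nor any SLBP library had a peak.

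EPB41, the gene of red cell protein 4.1R, had enriched RBFOX2 peaks in 2 parts of its window. Replicate 1 had 14 peaks with 7 enriched and replicate 2 had 16 with 5 enriched, and with touching peaks merged each had 3 enriched stretches. The first locus enriched in both replicates was near the 5′ edge, 1.48 kb into the window at 29214977 to 29215024, with log2 folds of 3.95 in replicate 1 and 3.35 in replicate 2. The second lay at 29387088 to 29387247, 173.6 kb from the 5′ edge or 74.5% of the way through. There replicate 1 had 3 enriched peaks with a highest log2 fold of 6.65, and replicate 2 had 3 with a highest of 3.72. Both loci were thus found in each replicate, and at the second the replicates differed by 2.93 on the log2 scale. With a log2 fold of at least 4 neither locus was shared, and with a −log10 p of at least 8 the first alone was.

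Downstream of the second locus EPB41 had 2 further places with peaks in both replicates, and at each only 1 replicate passed the limits. At 29388864 to 29388964 replicate 1 had enriched peaks of 5.72 and 5.66. Replicate 2 had peaks of 4.01 and 3.89 there, whose −log10 p of 4.94 and 4.38 fell just short of 5. At 29389177 to 29389237 it was the reverse: replicate 2 had an enriched peak of 3.24 and replicate 1 a peak of 2.39 with a −log10 p of 11.2, short of the fold limit. The 2 enriched stretches were 212 nt apart. SLBP replicates 2 and 4 had peaks of 1.36 and 1.58 between the second locus and these places, and a peak of RBFOX2 replicate 1 at 29388116 to 29388145, which coincided with the SLBP replicate 2 peak, was at 1.58.

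EPB41L1, the gene of 4.1N, had 1 locus enriched in both replicates, at 34798091 to 34798172, 118.7 kb from the 5′ edge or 84.0% of the way through. Replicate 1 had 1 peak there with a log2 fold of 4.82, its only enriched peak among 8 in the gene. Replicate 2 had 2 enriched peaks there with a highest of 5.15, out of 5 enriched among 15. The replicates differed by 0.33 at this locus. Just upstream, replicate 2 had a stretch of 5 touching peaks at 34797852 to 34798069, 3 of them enriched, that reached 5.34. Replicate 1 had 3 peaks on that stretch, with a highest log2 fold of 3.22 and a −log10 p of 4.64, so it missed the p limit. A second place shared by the replicates, at 34791173 to 34791355, reached 3.54 and 3.45 with no enriched peak.

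EPB41L3, the gene of 4.1B, had the fewest RBFOX2 peaks, 6 in each replicate with 1 enriched in each. The enriched peaks coincided at 5394573 to 5394634, 2.27 kb from the 3′ edge of the window and 99.03% of the way through. Their log2 folds were 3.41 in replicate 1 and 4.40 in replicate 2, with −log10 p of 5.60 and 6.79. Both lay close to the limits, and with a −log10 p of at least 8 EPB41L3 had no enriched peak. All 6 peaks of each replicate touched a peak of the other. At the 5 places they formed, the highest log2 folds were 3.41 and 4.40, 1.38 and 3.84, 3.46 and 2.19, 2.50 and 1.95, and 3.32 and 2.91 in replicates 1 and 2. Neither replicate was the higher at all 5.

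**Figure D3:**
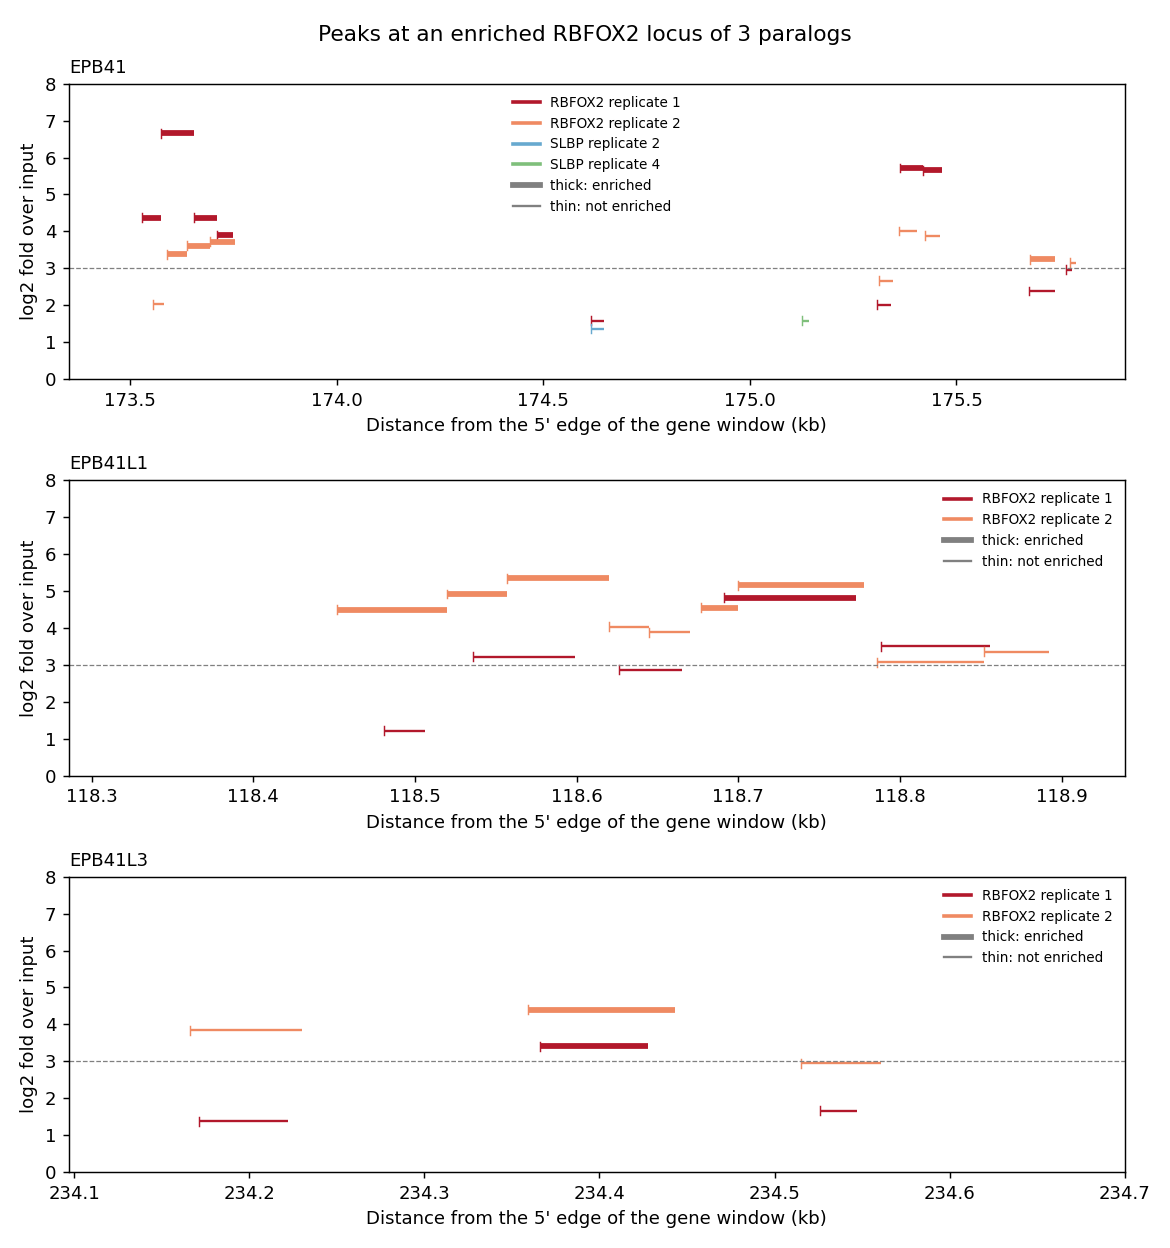
Peaks at one enriched RBFOX2 locus and its surroundings in EPB41, EPB41L1 and EPB41L3, drawn as distance from the 5′ edge of the window (kb, horizontal) against log2 fold over input (vertical, same range in each panel); thick bars are enriched and the dashed line marks a log2 fold of 3. Replicate 1 is higher at both EPB41 places with its enriched peaks, at up to 6.65, and replicate 2 is higher over most of EPB41L1, at up to 5.34, and at the enriched peaks of EPB41L3, 4.40 against 3.41.

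Set beside each other, the paralogs differed most in fold and in how their peaks were grouped. By the median log2 fold of all RBFOX2 peaks in a gene the order was EPB41L2 at 6.64 ± 0.28, EPB41 at 3.50 ± 0.40, EPB41L1 at 3.25 ± 0.28 and EPB41L3 at 2.92 ± 0.01 (SD, n = 2 for each). EPB41L2 stood above the other 3 in both replicates, by more than the spread between replicates. EPB41 and EPB41L1 overlapped, with medians of 3.78 and 3.22 in EPB41 and of 3.05 and 3.45 in EPB41L1. By the highest peak, EPB41L2 led in both replicates with 9.55 and 7.61. The order of the others changed: EPB41 had 6.65 and 4.01, EPB41L1 4.82 and 5.34, and EPB41L3 3.46 and 4.40. The 4.01 of EPB41 and the 3.46 of EPB41L3 were not enriched, with −log10 p of 4.94 and 2.94. With 2 libraries the smallest p for a difference between paralogs within libraries is 0.5, so the order is a description.

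The number of peaks followed the same order as the median fold in replicate 1, with 27, 14, 8 and 6 in EPB41L2, EPB41, EPB41L1 and EPB41L3, but not in replicate 2, with 12, 16, 15 and 6. Per 100 kb of window, RBFOX2 replicates 1 and 2 had 12.0 and 5.35 peaks in EPB41L2, 6.01 and 6.86 in EPB41, 5.66 and 10.6 in EPB41L1, and 2.53 and 2.53 in EPB41L3. EPB41L3 was lowest in both, while the other 3 overlapped. Part of the gap in EPB41L2 lay in how its summit was split, since its enriched pieces had a median width of 13 nt in replicate 1 and 32.5 nt in replicate 2. Enriched peaks covered 487 and 321 nt of EPB41L2, 368 and 295 nt of EPB41, 82 and 269 nt of EPB41L1, and 62 and 84 nt of EPB41L3, with width-weighted mean log2 folds of 6.43 and 6.28, 5.13 and 3.46, 4.82 and 4.94, and 3.41 and 4.40. By merged enriched stretches the counts were 6 and 4, 3 and 3, 1 and 2, and 1 and 1.

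The RBFOX2 peaks sat mostly in the same part of 3 of the windows, where other antibodies had peaks as well. In replicate 1, 47 of 55 family peaks had their midpoint between 70% and 90% of the way from the 5′ to the 3′ edge, and 34 of the 49 peaks of replicate 2 did so. The short EPB41L2 stretch alone gave 27 and 10 of them. Between the same limits, SLBP replicates 1 to 4 had at least 6 of 10, 3 of 6, 2 of 4 and 4 of 7 EPB41L2 peaks. IgG had at least 2 of its 4 there. In EPB41, SLBP replicates 1 to 4 had 1 of 3, 1 of 1, 1 of 4 and 1 of 1, and IgG had 0 of 1. In EPB41L1 the only IgG peak lay there, and SLBP had no peak in the gene. Peaks in this part were thus not limited to RBFOX2. Whether RBFOX2 favoured it more was not tested. The enriched loci of EPB41, EPB41L1 and EPB41L2 between 70% and 90% lay at 74.5%, 84.0% and 81.9%. The exceptions among enriched loci were the EPB41 locus at 0.64% and the EPB41L3 locus at 99.03%. Between 10% and 70% of the windows the family had 1 RBFOX2 peak in replicate 1 and 3 in replicate 2, none enriched. The windows include introns of unequal length, so equal percentages are not equal places in the transcripts or proteins.

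**Figure D4:**
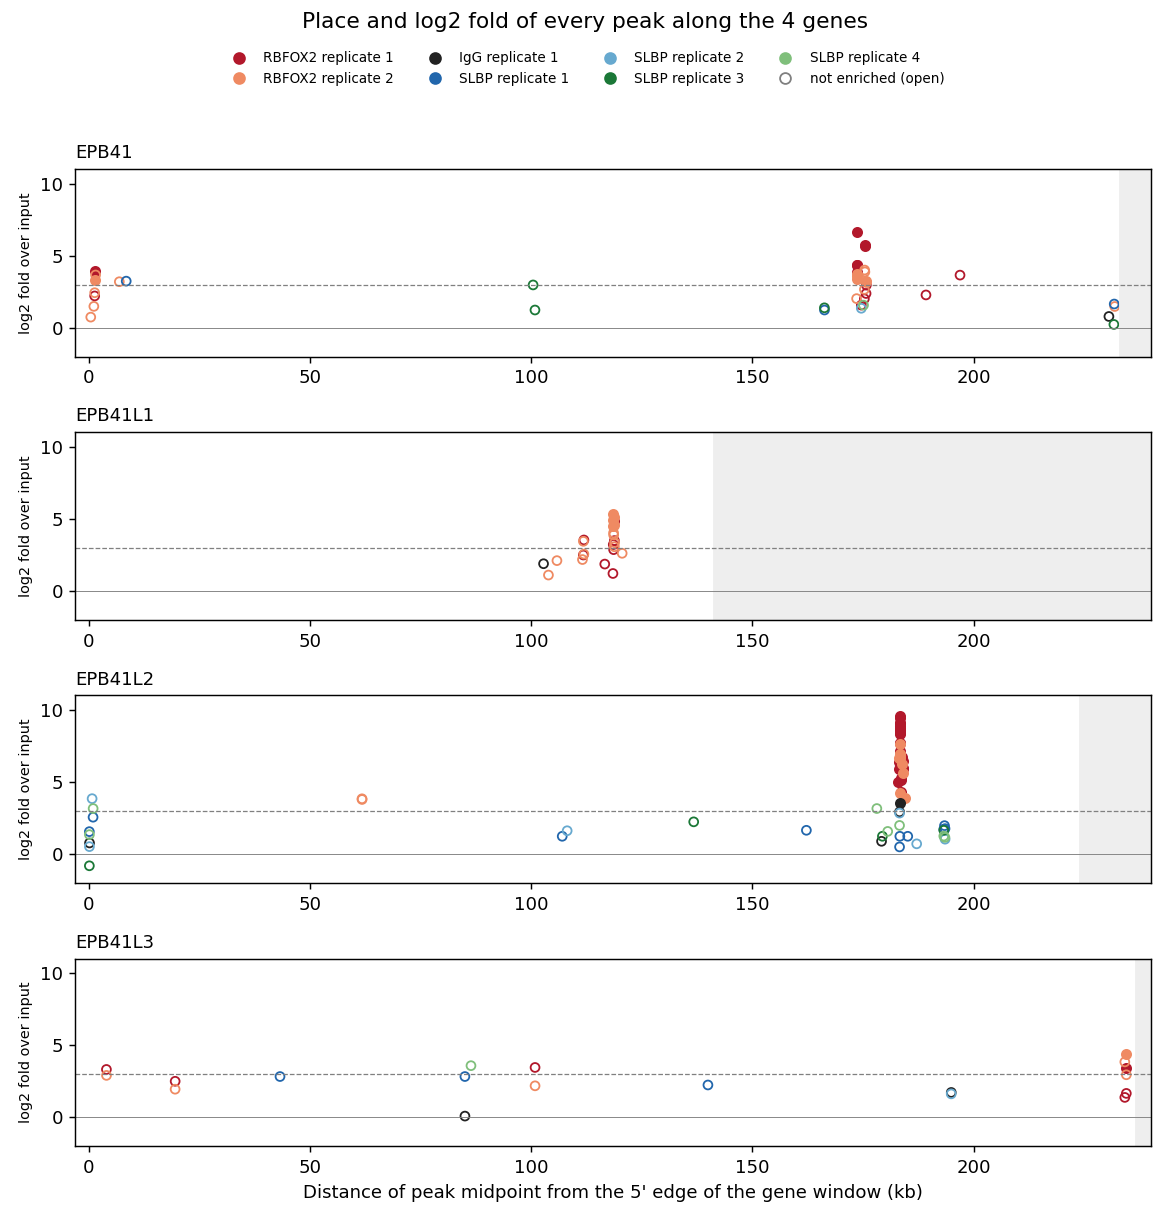
Every peak of the 7 lists in the 4 genes, by distance of its midpoint from the 5′ edge of the window (kb, horizontal) and log2 fold over input (vertical); filled points are enriched, open points are not, the dashed line marks a log2 fold of 3 and grey covers the range beyond the 3′ edge. Enriched points gather from 173.6 to 175.7 kb in EPB41, near 118.7 kb in EPB41L1, near 183.2 kb in EPB41L2 and near 234.4 kb in EPB41L3, and EPB41 has a further pair near 1.48 kb.

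Most RBFOX2 peaks of the family were met by a peak of the other replicate. Of the 55 family peaks of replicate 1, 46 touched a peak of replicate 2, and 37 of 49 did so in the other direction. The same shares over the whole lists were not computed, so these counts cannot be called high or low for the family. Of the enriched peaks, 28 of 36 in replicate 1 (77.8%) and 16 of 21 in replicate 2 (76.2%) touched an enriched peak of the other, against 68.7% and 60.7% over the lists. Of these, 22 and 9 were pieces in EPB41L2, so the family shares rest mostly on that gene. In replicates 1 and 2 it was 4 of 7 and 4 of 5 in EPB41, and 1 of 1 and 2 of 5 in EPB41L1. In EPB41L3 it was 1 of 1 in each. In EPB41L2, 303 nt were covered by peaks of both, 62.2% of the nucleotides of replicate 1 and 87.3% of those of replicate 2. Over those nucleotides the mean log2 fold was 7.04 in replicate 1 and 6.42 in replicate 2. Replicate 1 was also higher in EPB41, at 4.25 against 3.32 over 449 nt. Replicate 2 was higher in EPB41L1, at 4.13 against 3.41 over 350 nt, and in EPB41L3, at 3.41 against 2.70 over 207 nt. The sign of the difference between replicates thus differed from gene to gene.

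Outside the RBFOX2 loci, the other antibodies had no enriched peak, although 5 SLBP peaks passed the fold limit. With peaks of all libraries joined when at most 100 nt apart, the 4 genes held 56 places, of which 13 had peaks of both RBFOX2 replicates, 16 of 1 replicate and 27 of neither. Of those 27, 20 were seen in 1 library and 7 in several. The most shared was the 5′ end of EPB41L2, at 131384306 to 131384374, 0.13 kb from the 5′ edge. IgG had a log2 fold of 0.78 there, SLBP replicates 1 to 4 had 1.57, 0.53, −0.80 and 1.36, and RBFOX2 had no peak. Further into EPB41L2, separate places lay at 131190907 to 131191067 and at 131191200 to 131191250, 30.5 and 30.8 kb from the 3′ edge. SLBP replicates 1, 2 and 4 had peaks at the former and replicates 1, 3 and 4 at the latter, all of 1.98 or lower. IgG and RBFOX2 had none at either. The highest SLBP peaks in the family were 3.24 at EPB41 in replicate 1, 3.85 at EPB41L2 in replicate 2, 2.98 at EPB41 in replicate 3 and 3.58 at EPB41L3 in replicate 4. None had a −log10 p above 2.64. They were thus well below the p limit at either RNase I amount.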

How the data were processed

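The 7 eCLIP libraries with a peak list were used, out of 24 samples in the series. The inputs entered through the authors' folds, and the remaining RBFOX2 samples were not analysed here. The deposited −log10 p-value and log2 fold of each peak are the authors' own, read as such from the values and the input-normalized naming, since the files have no header. The build hg19 and the tools cutadapt, STAR, GATK, Picard and SAMtools are named without versions per the submitters' processing notes. For the peak caller, the sources used here give no name. No library-wide count was given, so precision is limited to binomial 95% intervals on shares of peaks.

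Peaks were assigned to the 4 gene windows by an overlap of at least 1 nt on the strand, with positions counted from 1. The windows were not checked against an hg19 annotation. Sites are nucleotides enriched in both RBFOX2 libraries, and sites within 1000 nt form a locus. Every locus enriched in both libraries was to be named where a gene had 8 or fewer, with the highest peak of each other library. Two-sided exact permutation tests compared the libraries (Python 3.11.15, SciPy 1.17.1, pandas 2.3.3), tested on simulated lists. Alternatives covered the limits, the overlap, touching peaks, RNase I amount, replicates and the replicate number as a block. The members and lists were chosen with earlier results of these data known. Related genes and exons planned for comparison needed an hg19 annotation and were left out. Few values recur often in the −log10 p. Of the 57 enriched RBFOX2 family peaks, 22 stood at 15.66 and 16 at the ceiling of 400, so it served as a filter only.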

Additional observations from a re-analysis of the deposited data

Results flagged for a closer look

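SLBP replicate 1 had 16 peaks in the 4 genes, while the other SLBP libraries had 8, 8 and 9. It was picked out because its distance from the next library was 0.875 of the whole range of the 4 values. The SLBP list of replicate 1 was also the longest, with 23034 peaks. As a share of the list the family took 0.0695%, 0.0436%, 0.0471% and 0.0889% in replicates 1 to 4, so by this measure replicate 4 and not replicate 1 was the highest. Counts, medians and highest folds were examined in 20 such groups, and chance picks out about 1 in 20.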

How the results depend on the processing

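RBFOX2 stayed above SLBP in every alternative tried for the 4 family comparisons, which did not include the number of peaks as a share of the list, where the groups overlapped, and none passed 0.05, which the number of libraries does not allow. With touching peaks merged, the difference fell to 21.25 peaks and to 10.5 enriched peaks, and the enriched peaks per gene averaged 3 in EPB41, 1.5 in EPB41L1 and 5 in EPB41L2. Without EPB41L2, an alternative chosen after seeing the data, it was 10.0 enriched peaks. A log2 fold limit of 4 gave a mean of 2.5 enriched RBFOX2 peaks in EPB41 and 0.5 in EPB41L3, with 0 sites shared by the replicates in either. A −log10 p limit of 8 gave a mean of 0 in EPB41L3, with 0 shared sites there and 1 in EPB41. A −log10 p limit of 3 gave a mean of 6 in EPB41L1, with 2 shared sites there and 4 in EPB41. Requiring 50% of the shorter peak to overlap gave 4 shared sites in EPB41 and 5 in EPB41L2, and requiring 10 nt gave 9 in EPB41L2, because dropping short overlaps broke up joined stretches. Leaving out 1 library gave differences of 38.75 to 44.75 peaks, 21.0 to 36.0 enriched peaks, 42.9 to 65.5 percentage points in enriched share and 2.15 to 3.60 in median log2 fold. The mean number of enriched peaks then ran from 5 to 7 in EPB41, 1 to 5 in EPB41L1 and 10 to 27 in EPB41L2, and stayed at 1 in EPB41L3. With SLBP at 40 U alone the differences were 40.0 peaks and 28.5 enriched peaks (two-sided exact permutation p = 0.333, the smallest possible). With the replicate number as a block over replicates 1 and 2 they were again 40.0 peaks and 28.5 enriched peaks (exact sign-flip p = 0.5, the smallest that 2 pairs allow). The labels do not say that a number marks a shared batch, and over 3703 places with a peak in all 4 lists the replicate differences of the 2 antibodies correlated at −0.04. The read depth behind each fold is unknown.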

Other observations

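On the strand opposite to the genes the 7 lists held 1 peak in the 4 windows, in EPB41L1 in RBFOX2 replicate 2 at 34742183 to 34742217, with a log2 fold of −0.55.

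Many weaker peaks carried exactly the same pair of log2 fold and −log10 p as other peaks of their list. Of the family peaks that were not enriched, 18 of 19 in RBFOX2 replicate 1 and 28 of 28 in replicate 2 shared their pair with at least 1 other peak, with a median of 91 and 76.5 peaks per pair. Over the lists, 95.2% and 96.4% of the peaks that were not enriched did so, so the family was close to its lists. All 7 IgG and all 16, 8, 8 and 9 SLBP family peaks that were not enriched did so too. Over the lists it was 94.7% in IgG and 94.9%, 94.0%, 93.4% and 89.0% in SLBP replicates 1 to 4. The enriched peak of EPB41L3 shared its pair with others as well, 25 peaks in all in replicate 1 and 20 in replicate 2. Of the enriched family peaks, 12 of 36 and 14 of 21 shared a pair in replicates 1 and 2, against 79.4% and 77.4% of the enriched peaks of the lists.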
